A study of Mus musculus with 12 samples.

Results

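Molecular chaperones of the cytosol and the mitochondrion, their co-chaperones and the heat shock factors were followed across cultured mouse CD4 T cells of 2 polarizations and 2 genotypes. The set was a list of 35 gene symbols, matched by Ensembl ID to the deposited count tables. Of these, 34 were found among 39179 gene IDs, and Hspa14 was not analysed here. The 34 genes comprised 6 of the HSP70 and HSP110 family, 2 HSP90 genes, 5 HSP90 co-chaperones, 6 J-domain or BAG co-chaperones, 1 small heat shock protein, 2 heat shock factors, 8 subunits of the cytosolic chaperonin CCT and 4 mitochondrial chaperones. A filter on low counts, applied to all genes alike, kept 31 of the 34 for testing. Hspa1a, Hspa1b and Hspb1 fell below it and are described by their counts.

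Chaperones bind unfolded or partly folded proteins and release them in cycles driven by ATP. HSP70 proteins hold short hydrophobic stretches of new or damaged chains. J-domain proteins such as Dnajb1 bring them clients and start ATP hydrolysis, and HSP110 and BAG proteins exchange the nucleotide. HSP90 takes over late folding steps of kinases and steroid receptors together with co-chaperones, and CCT encloses actin and tubulin in a double ring. Heat shock factor 1 is held inactive in resting cells and, on release, binds inverted repeats of the letters GAA upstream of its targets, of which Hspa1a and Hspa1b are the classic examples. In T cells, activation and growth raise the need for folding, and several chaperones are known to rise with entry into the cell cycle.

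Poly-A RNA of 12 sorted samples was sequenced, 3 from each combination of polarization and genotype. All cells came from lymph nodes and spleen of mice carrying the transgenic OT-II receptor for a peptide of ovalbumin, either C57BL/6 x OT-II (WT) or OT-II x NKG2D-/- (KO). NKG2D is an activating receptor of lymphocytes encoded by Klrk1. Naive CD4 T cells were stimulated with the peptide, an antibody to CD28 and antigen-presenting cells on day 0 and day 5 and sorted on day 8. Th1 cultures received IL-2, IL-12 and anti-IL-4. Th17 cultures, titled pTh17+IL12 in the labels, received IL-1b, IL-6, IL-23, anti-IFNg and anti-IL4, with IL-12 added after the second stimulation. WT cells carried Thy1.2 and were sorted as NKG2D-positive, and KO cells carried Thy1.1. The genotype, the congenic marker and the selection for receptor-positive cells therefore cannot be told apart, and how many mice gave rise to the samples is not given in the sources used here, so the spread between samples may be partly technical.

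Klrk1 read 128 to 161 CPM in Th1 WT, 130 to 141 CPM in Th17 WT and 1.6 to 5.63 CPM in the KO libraries, so the targeted gene was low in each library labelled KO. CPM are counts scaled to a common library size after TMM normalization. The CD4 T cell genes Cd4 and Cd3e were present in every library. Il23r, the IL-23 receptor gene of Th17 cells, read 0.208 to 1.04 CPM in Th1 libraries. In Th17 it read 38.4 to 43.2 CPM in WT and 64.7 to 75.1 CPM in KO. All 5 tested Th17 marker genes were higher in Th17 in each genotype (edgeR adjusted p under 0.05). Of 5 Th1 marker genes, 2 were higher and 2 lower in each genotype, where 47.1% of all genes passed in WT and 53.6% in KO. Within Th17, 4 of the Th17 genes were higher and 3 of the Th1 genes lower in KO, against 5.83% of all genes. Markers of other cells were low. The 5 B cell genes summed to 0.208 to 4.79 CPM and the 9 myeloid genes to 5.27 to 12.6 CPM, each with its highest value in a Th17 KO library, and the NK cell gene Ncr1 was at 0. Of the 12 libraries, 9 held 9108203 to 12688637 counts. The other 3 were shallow, with 2731909 in Th17 WT 2, 1647232 in Th17 WT 3 and 1722228 in Th17 KO 2, and 1 gene ID took 18.3, 48.12 and 50.97% of their counts. A fit without these 3 libraries leaves 1 Th17 WT and 2 Th17 KO libraries; there the lone Th17 WT library has no replicate and is assumed to vary like the other groups. The chaperone genes drew 8360 to 20871 counts in these 3 libraries and 102557 to 138408 in the others, and a floor of 3 counts equals 0.208 to 3.15 CPM. Sample numbers within a group follow the deposit, and the labels state no pairing between groups.

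Heat shock factor binding letters were looked up in RefSeq promoter windows (GRCm38.p6), which run from 250 bases before to 50 bases after a start. A window was given for 28 of the 34 genes, 37 windows in all. Hspa8, Hspa9, Hsp90aa1, Hsp90ab1, Cct4 and Hsf1 had none here. The 2-unit element, GAANNTTC or TTCNNGAA, was in 45.9% of the chaperone windows and in 15.1% of all 32851 windows, and 15 chaperone genes held it. The 3-unit element, GAANNTTC followed by NNGAA or TTCNNGAA followed by NNTTC, was in 18.9% of the chaperone windows and 0.603% of all windows. Both were read on either strand, and each 3-unit match also holds 2-unit matches. The holders of the 3-unit element were Hspe1, Hspd1, Hsph1, Chordc1 and Dnajb6. Overlapping windows counted the same site again for Hsph1 and for Dnajb6, and Hspe1 and Hspd1 share a site. The 7 matching chaperone windows therefore hold fewer than 7 separate sites. The CCAAT box, a common promoter element, was in 40.5% against 37.4%. A match describes letters and says nothing about binding. The windows below are shown because they hold the 3-unit element, shared by Hspe1 and Hspd1, or belong to Fkbp4, which fell most in Th17, and to the classic inducible pair. Capitals mark heat shock element letters and, in Hspa1a and Hspa1b, also the CCAAT box read on the other strand (ATTGG).
Hspe1, chr1:55088053-55088082, plus strand, between the Hspe1 start and an Hspd1 start, within an exon of Hspd1: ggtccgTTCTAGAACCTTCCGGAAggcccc
Hsph1, chr5:149636287-149636316, minus strand, after the start and within an Hsph1 exon: agtaaaatgctgcagaTTCTGGAAAGTTCt
Chordc1, chr9:18292257-18292286, plus strand, across the start and within an annotated Chordc1 exon: caaccgGAACGTTCGGGAAAATTCCTGAAg
Dnajb6, chr5:29735842-29735871, plus strand, upstream of the start and within annotated exons of Dnajb6 and Gm5129: tcagctccgaGAATCTTCCGGAAcgctaga
Fkbp4, chr6:128438789-128438818, minus strand, upstream of the start and within an exon of Gm10069: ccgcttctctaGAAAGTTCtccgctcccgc
Hspa1a, chr17:34972207-34972286, minus strand, upstream of the start: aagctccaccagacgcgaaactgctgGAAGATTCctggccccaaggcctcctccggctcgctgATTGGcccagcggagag
Hspa1b, chr17:34959289-34959368, minus strand, upstream of the start: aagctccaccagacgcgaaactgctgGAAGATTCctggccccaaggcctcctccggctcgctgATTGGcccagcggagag
Hspa1a and Hspa1b lie next to each other on chromosome 17, and their windows were identical at 296 of 300 bases, including all 80 printed.

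The chaperone genes together made up 9130 to 9480 CPM in Th1 WT, 9350 to 9690 CPM in Th1 KO, 8250 to 8870 CPM in Th17 WT and 8780 to 9140 CPM in Th17 KO. Levels were compared between genes as CPM per kb of the principal transcript, or of the longest transcript for Cct6a, which had no principal transcript marked. The constitutive HSP70 gene Hspa8 led, with a median over the 12 libraries of 872 CPM per kb, then came the constitutive HSP90 gene Hsp90ab1 at 722 and the inducible HSP90 gene Hsp90aa1 at 255. The ranges of Hspa8 (770 to 955) and Hsp90ab1 (647 to 833) overlapped, and their order turned with the length of all annotated exons in place of 1 transcript (485 and 606 CPM per kb). Hsp90aa1, at 198 to 286, stayed below both in every library. The CCT subunits Tcp1 (205), Cct5 (177) and Cct2 (175) followed, and their ranges overlapped. The range of Tcp1 (174 to 231) also overlapped that of Hsp90aa1. With the length of all exons the order of these subunits turned, to Cct2 (134), Cct5 (119) and Tcp1 (99.7). Near the low end stood Hsf1 (9.74), Hsph1 (9.07), Hsf2 (8.95), Hspa4l (5.26), Dnajb4 (4.8) and Bag3 (1.89). With the length of all exons, Hsf1 (2.86), Hsf2 (2.43) and Dnajb4 (1.35) were lower, and Dnajb4 then lay below Bag3 (1.89), so the order at the low end also depends on the length used.

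**Figure D1:**
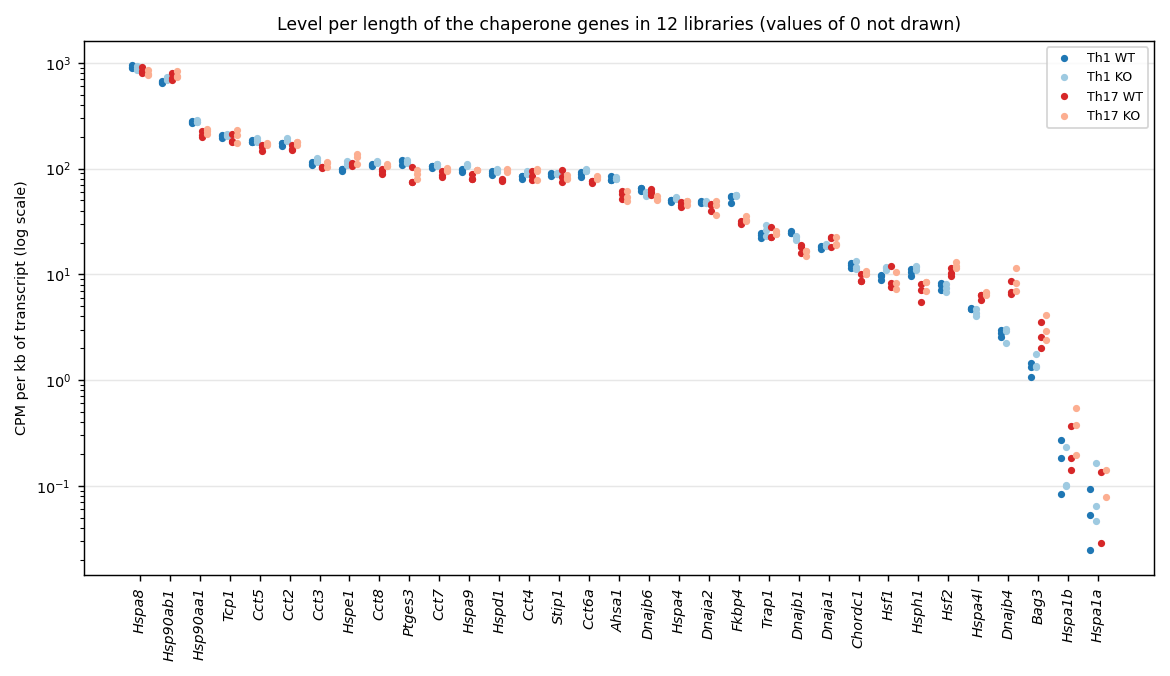
Level of each chaperone gene in CPM per kb of principal transcript (longest transcript for Cct6a; log axis), with 1 point per library coloured by group and genes ordered by their median. Hspa8 and Hsp90ab1 sit at the top, the inducible Hspa1b and Hspa1a lie below 1 CPM per kb, and Hspb1, at 0 in all libraries, is not drawn.

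Hspa1a, Hspa1b and Hspb1 had few or no counts in all 4 groups. Hspa1a had 1, 2 and 4 counts in Th1 WT, 2, 2 and 6 counts in Th1 KO, 1, 1 and 0 counts in Th17 WT and 3, 0 and 5 counts in Th17 KO, which is 27 counts in all 12 libraries. Hspa1b had 7, 3 and 11 counts in Th1 WT, 3, 4 and 8 counts in Th1 KO, 6, 1 and 1 counts in Th17 WT and 7, 1 and 18 counts in Th17 KO, 70 in all. Their levels were 0 to 0.485 CPM and 0.235 to 1.51 CPM, and the groups overlapped for both. Hspb1, the small heat shock protein that holds aggregating proteins, had 0 counts in every library, which allows up to the floor of 0.208 to 3.15 CPM. Reads common to the copies bear on this. Of the 75-base stretches of Hspa1a, 61.7% also occur in other genes, mostly Hspa1b, and so do 55.8% of those of Hspa1b and 57.7% of those of Hspb1. How reads with several matches were counted is not given in the sources used here, and reads of the unshared stretches would have counted either way.

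Hspa8, the constitutive HSP70 that performs routine folding, differed little between the groups. It read 2180, 2290 and 2130 CPM in Th1 WT, 2150, 2220 and 2050 CPM in Th1 KO, 2030, 1930 and 2170 CPM in Th17 WT and 1900, 2040 and 1840 CPM in Th17 KO. The Th17 KO libraries lay below all Th1 libraries, and the genotypes overlapped within each polarization. Relative to Th1 its log2 fold change in Th17 was -0.11 ± 0.07 (SE, n = 3 per group) in WT and -0.15 ± 0.07 in KO, neither past the threshold of an adjusted p of 0.05 (edgeR adjusted p = 0.198 and 0.0568). The KO value passed in 8 of 19 alternative settings, among them the fits without the 3 shallow libraries (0.0032), without Th17 KO 2 (0.0222), without Th1 KO 3 (0.0345) and without Th17 WT 1 (0.0386). Other annotated genes share 68.6% of its 75-base stretches, so its count is uncertain.

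Th17 cells were compared with Th1 cells within each genotype. Most HSP90 co-chaperones and the HSP90 gene Hsp90aa1 were lower in Th17, as were the nucleotide exchange factor Hsph1 and the J-domain protein Dnajb1. Where they passed the test, the fitted change ran from -14.4% (Chordc1 in KO) to -41.8% (Fkbp4 in KO). Dnajb4, Bag3, Hsf2 and Hspa4l were higher. In WT, 17 of the 31 tested genes passed the threshold (54.8%), against 47.1% of all 12189 genes. Of these, 4 were higher and 13 lower, where 23.5 and 23.6% of all genes were higher and lower. In KO, 18 passed (58.1%, against 53.6% of all genes), 5 higher and 13 lower, where 26.9 and 26.7% of all genes were. The median log2 fold change of the 31 genes was -0.13 in WT and -0.12 in KO, while that of all genes was -0.01 and 0.00. In both genotypes 10 genes were lower (Ahsa1, Cct6a, Cct7, Chordc1, Dnajb1, Fkbp4, Hsp90aa1, Hspa9, Hsph1 and Ptges3) and 4 were higher. The share of all genes that passed in the same direction in both was not counted, so this overlap is not read as particular to the chaperone genes. The WT and KO comparisons share no sample, and the fit gave them a common estimate of the spread. CPM ranges of the groups did not overlap for 6 higher and 16 lower genes in WT, where 24.6 and 27.5% of all genes behaved so. In KO they did not overlap for 5 higher and 17 lower genes, against 27.1 and 28.6%.

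**Figure D2:**
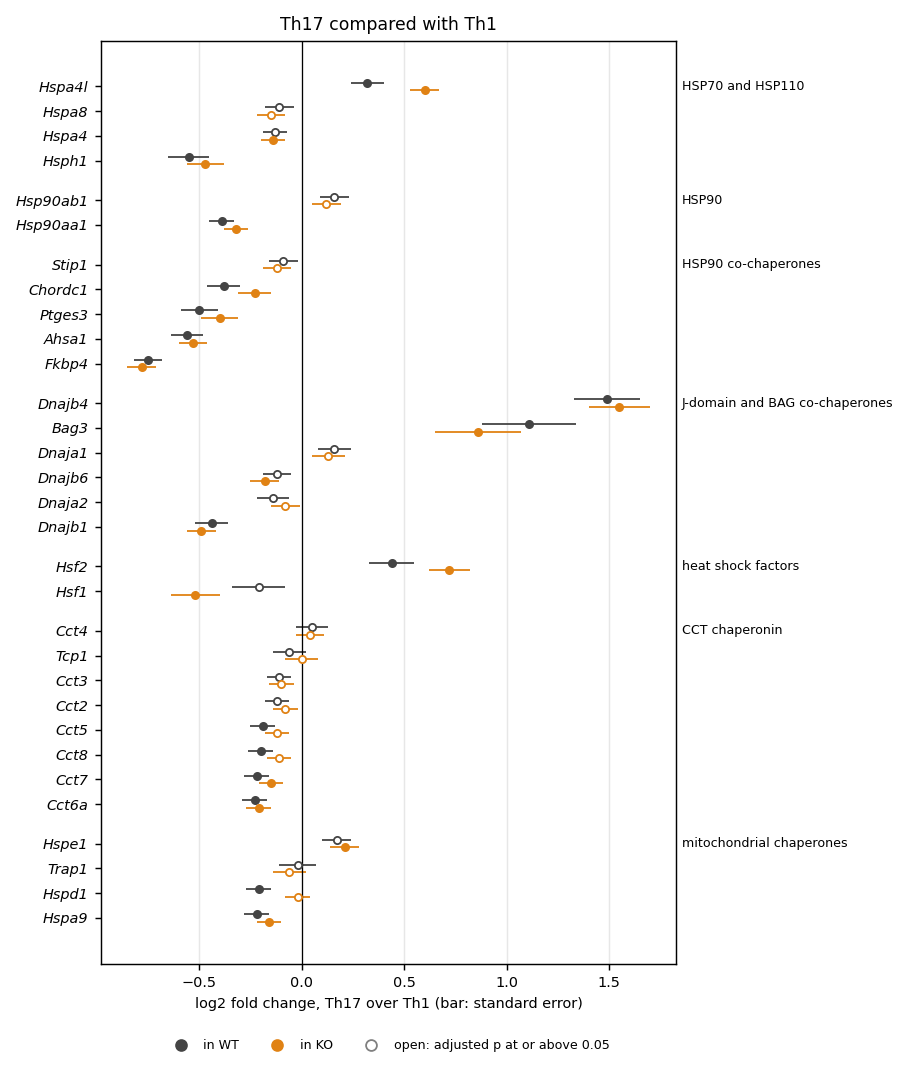
Fitted log2 fold change of Th17 over Th1 for the 31 tested chaperone genes, by role, in WT (grey) and KO (orange), with the standard error as a bar and open points where the adjusted p was 0.05 or more. The HSP90 co-chaperones lie left of 0, and Dnajb4, at 1.49 and 1.55, lies farthest right.

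Among the HSP90 genes, the inducible form fell in Th17 and the constitutive form did not. Hsp90aa1 read 896, 908 and 929 CPM in Th1 WT, 940, 913 and 908 CPM in Th1 KO, 739, 651 and 689 CPM in Th17 WT and 739, 697 and 775 CPM in Th17 KO. No Th17 library reached the lowest Th1 library. Its log2 fold change was -0.39 ± 0.06 in WT (edgeR adjusted p = 8.05e-06) and -0.32 ± 0.06 in KO (9.51e-05). Hsp90ab1 read 1670, 1700 and 1630 CPM in Th1 WT, 1840, 1820 and 1730 CPM in Th1 KO, 2030, 1740 and 1820 CPM in Th17 WT and 2100, 1860 and 1900 CPM in Th17 KO. Every Th17 library lay above the Th1 libraries of its genotype, but the differences of 0.16 ± 0.07 and 0.12 ± 0.07 did not pass the threshold (edgeR adjusted p = 0.0556 and 0.134). That of WT passed in 8 of 19 alternatives, among them the fits without the 3 shallow libraries (0.00214, with the 1 Th17 WT library of highest value left), without Th17 KO 1 (0.0474) and without Th17 WT 2 (0.0299), and that of KO passed without the 3 shallow libraries (0.0318). The ratio of Hsp90aa1 to Hsp90ab1 per length was 0.385 to 0.438 in the 6 Th1 libraries and 0.27 to 0.314 in the 6 Th17 libraries. Other annotated genes share 53.1% of the 75-base stretches of Hsp90aa1 and 0.736% of those of Hsp90ab1.

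Of the 5 HSP90 co-chaperones, 4 fell in Th17 in both genotypes (80%, where 23.6% of all genes were lower in WT and 26.7% in KO). The median log2 fold change of the 5 was -0.5 in WT and -0.4 in KO. Fkbp4, a peptidyl-prolyl isomerase that accompanies HSP90 on steroid receptors, changed most. It read 106, 121 and 119 CPM in Th1 WT, 126, 125 and 122 CPM in Th1 KO, 67.6, 71.2 and 66.5 CPM in Th17 WT and 70.2, 78.8 and 72.5 CPM in Th17 KO. The lowest Th1 library stood well above the highest Th17 library. The fold was 0.593 in WT and 0.582 in KO (log2 -0.75 ± 0.07 and -0.78 ± 0.07, edgeR adjusted p = 4.38e-09 and 4.65e-10). Ahsa1, which speeds the ATPase of HSP90, read 108, 118 and 108 CPM in Th1 WT, 110, 109 and 115 CPM in Th1 KO, 71, 79.1 and 84.1 CPM in Th17 WT and 73.5, 68.3 and 84.2 CPM in Th17 KO. It too separated the polarizations in all libraries (log2 -0.56 ± 0.08 and -0.53 ± 0.07, edgeR adjusted p = 2.33e-06 and 1.52e-06).

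The other co-chaperones differed in how firmly they fell. Ptges3, the p23 protein that stabilises the closed form of HSP90, changed by -0.5 ± 0.09 in WT and -0.4 ± 0.09 in KO (edgeR adjusted p = 0.000165 and 0.000771). Chordc1 changed by -0.38 ± 0.08 and -0.23 ± 0.08 (edgeR adjusted p = 0.000547 and 0.0155). The KO call of Chordc1 was lost with DESeq2 (adjusted p = 0.063) and in the edgeR fits without Th1 KO 3 (adjusted p = 0.105) or Th17 KO 1 (0.106). Stip1, which links HSP70 to HSP90, read 186 ± 4.97 CPM (SD, n = 3) in Th1 WT and 180 ± 23.6 CPM in Th17 WT. Its changes of -0.09 and -0.12 did not pass the threshold (edgeR adjusted p = 0.316 and 0.131), though both did without the 3 shallow libraries (0.00999, with the 1 Th17 WT library of lowest value left, and 0.0188). Stip1 in WT also passed without Th17 WT 3 alone (adjusted p = 0.0377).

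**Figure D3:**
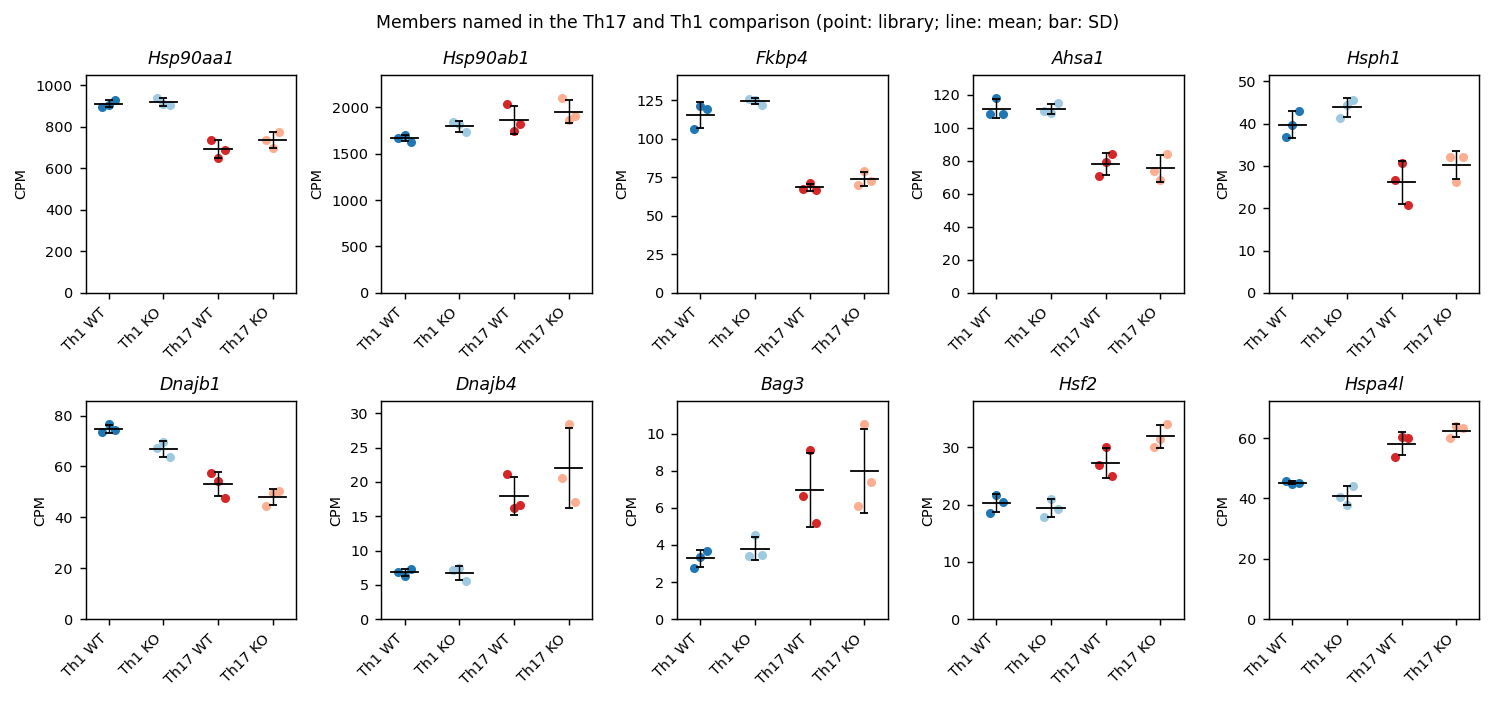
CPM of 10 chaperone genes in every library of the 4 groups, with the mean as a line and the SD as a bar, n = 3 per group, on axes that start at 0. Hsp90aa1, Fkbp4, Ahsa1, Hsph1 and Dnajb1 are lower, and Dnajb4, Bag3, Hsf2 and Hspa4l higher, in each Th17 library than in each Th1 library of the same genotype.

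In the HSP70 and HSP110 family, close relatives went opposite ways. Hsph1, the inducible HSP110 that exchanges nucleotide on HSP70, read 36.8, 39.6 and 43 CPM in Th1 WT, 41.4, 44.5 and 45.7 CPM in Th1 KO, 26.8, 30.8 and 20.8 CPM in Th17 WT and 32.2, 26.3 and 32.2 CPM in Th17 KO. All Th17 libraries were below all Th1 libraries (log2 -0.55 ± 0.1 in WT and -0.47 ± 0.09 in KO, edgeR adjusted p = 8.12e-05 and 8.93e-05). Hspa4l, another HSP110 gene, read 45.9, 44.8 and 45 CPM in Th1 WT, 40.5, 38 and 44.3 CPM in Th1 KO, 53.8, 60.5 and 60.2 CPM in Th17 WT and 60.1, 64.1 and 63.3 CPM in Th17 KO. It rose in each genotype (log2 0.32 ± 0.08 and 0.6 ± 0.07, edgeR adjusted p = 0.00183 and 1.98e-07). The difference between these 2 changes, 0.28 ± 0.11, did not pass over all genes (edgeR adjusted p = 0.355). Hspa4, the third HSP110 gene, stood at -0.13 in WT (edgeR adjusted p = 0.0715) and fell, at -0.14, in KO (0.0485). The WT value passed in 4 of 19 alternatives, among them the fits without Th17 KO 2 (0.0486) and without Th17 WT 3 (0.031). The KO call was lost in 13 of 19 alternatives, among them the edgeR fits without any 1 Th1 library, without Th17 KO 1 or without Th17 KO 3 (adjusted p = 0.0514 to 0.267).

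The J-domain and BAG co-chaperones held the largest rises among the tested genes. Dnajb4 read 6.89, 6.27 and 7.35 CPM in Th1 WT, 7.18, 7.43 and 5.57 CPM in Th1 KO, 21.2, 16.2 and 16.6 CPM in Th17 WT and 20.6, 28.4 and 17.1 CPM in Th17 KO. The fitted fold was 2.82 in WT and 2.92 in KO (log2 1.49 ± 0.16 and 1.55 ± 0.15, edgeR adjusted p = 3.81e-08 and 4.67e-09). Bag3, which joins HSP70 to small heat shock proteins and to autophagy, read 2.76, 3.37 and 3.68 CPM in Th1 WT, 3.4, 4.52 and 3.47 CPM in Th1 KO, 6.61, 9.1 and 5.19 CPM in Th17 WT and 6.07, 10.5 and 7.39 CPM in Th17 KO. Its groups did not overlap either, at folds of 2.15 and 1.82 (log2 1.11 ± 0.23 and 0.86 ± 0.21, edgeR adjusted p = 0.00035 and 0.00107). Both are low genes, with 41, 16 and 27 counts of Dnajb4 and 23, 5 and 10 of Bag3 in the shallow libraries.

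Dnajb1, the main J-domain partner of inducible HSP70, went the other way. It read 73.6, 76.6 and 74.2 CPM in Th1 WT, 67.4, 69.8 and 63.6 CPM in Th1 KO, 57.3, 54.2 and 47.8 CPM in Th17 WT and 44.5, 49.4 and 50.3 CPM in Th17 KO. Every Th17 library was below every Th1 library (log2 -0.44 ± 0.08 and -0.49 ± 0.07, edgeR adjusted p = 4.21e-05 and 3.43e-06). Dnaja1 and Dnaja2, which serve HSP70 in routine folding, did not pass in either genotype (log2 0.16 and -0.14 in WT, 0.13 and -0.08 in KO), though without Th17 WT 1 the WT value of Dnaja1 was 0.29 (edgeR adjusted p = 0.0121). Dnajb6, which suppresses aggregation, stood at -0.12 in WT (edgeR adjusted p = 0.149) and fell, at -0.18, in KO (0.0255). The KO call of Dnajb6 was lost with DESeq2 (adjusted p = 0.0674) and in the edgeR fits without Th1 KO 2, Th1 KO 3, Th17 KO 1 or Th17 KO 3 (0.0725 to 0.126).

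The heat shock factors were low. Hsf2 rose in both genotypes, and Hsf1 passed, as lower in Th17, in KO only. Hsf2, a relative of Hsf1 known from development, read 18.6, 21.7 and 20.5 CPM in Th1 WT, 17.9, 21 and 19.3 CPM in Th1 KO, 26.9, 30.1 and 24.9 CPM in Th17 WT and 30.1, 31.5 and 34 CPM in Th17 KO. It rose by 0.44 ± 0.11 and 0.72 ± 0.1 on the log2 scale (edgeR adjusted p = 0.00185 and 9.13e-07), with no overlap of the groups. Hsf1, the master factor of the heat shock response, read 20.2, 20.4 and 18.5 CPM in Th1 WT, 22.8, 24.3 and 24.1 CPM in Th1 KO, 15.7, 17.4 and 24.9 CPM in Th17 WT and 15.2, 22.1 and 17.1 CPM in Th17 KO. The 2 highest Th17 values came from the shallow libraries Th17 WT 3 and Th17 KO 2. In WT the mean of Hsf1 was 19.7 CPM in Th1 and 19.3 CPM in Th17, and the ranges overlapped. Hsf1 fell in KO (-0.52 ± 0.12, edgeR adjusted p = 0.000433) and did not pass in WT (-0.21 ± 0.13, 0.2). The difference between these changes, -0.31 ± 0.18, did not pass either (edgeR adjusted p = 0.607). Hsf1 activity is set mostly by the protein, which was not measured.

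The 8 CCT subunits assemble in equal numbers. Their mean levels ran from 84.2 to 202 CPM per kb in Th1 WT, a ratio of 2.4 between the highest and lowest subunit, and Th1 KO, Th17 WT and Th17 KO gave ratios of 2.27, 2.54 and 2.48. The band depends on the length used: over all libraries the subunit medians spanned a ratio of 2.43 with 1 transcript per gene and of 3.85 with all exons (34.8 for Cct3 to 134 for Cct2). In the first, the lowest median, 84.3, was that of Cct6a, which had no principal transcript marked and was read by its longest transcript. Cct6a was also the lowest subunit in Th17 WT (75.5) and Th17 KO (82.7). In WT, 4 subunits were lower in Th17: Cct5 (-0.19), Cct6a (-0.23), Cct7 (-0.22) and Cct8 (-0.2), with edgeR adjusted p of 0.00262 to 0.0116. These are 50% of the subunits, where 47.1% of all genes passed and 23.6% were lower. Without the 3 shallow libraries, and so with 1 Th17 WT library, Cct5 (adjusted p = 0.178), Cct7 (0.155) and Cct8 (0.0951) no longer passed, and Cct6a did. In KO, Cct6a (-0.21, edgeR adjusted p = 0.00319) and Cct7 (-0.15, 0.0356) were lower, 25% of the subunits, where 53.6% of all genes passed and 26.7% were lower. The KO call of Cct7 was lost in the edgeR fits without Th1 KO 1, Th1 KO 3, Th17 KO 2 or Th17 KO 3 (adjusted p = 0.0666 to 0.111), with DESeq2 (0.0676) and with only the 2 groups in the fit (0.0535). Tcp1, Cct2, Cct3 and Cct4 passed in neither genotype, at -0.12 to 0.05 in WT and -0.1 to 0.04 in KO. Without Th17 WT 1, Cct2 passed in WT (-0.19, edgeR adjusted p = 0.0381), and without the 3 shallow libraries Cct5 (0.0395) and Cct8 (0.0343) passed in KO.

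Of the 4 mitochondrial chaperones, 2 passed in each genotype (50%, against 47.1% of all genes in WT and 53.6% in KO). Hspa9, the mitochondrial HSP70 that pulls in proteins through the inner membrane, fell by 0.22 ± 0.06 in WT and by 0.16 ± 0.06 in KO on the log2 scale (edgeR adjusted p = 0.00286 and 0.0247). The KO call of Hspa9 was lost without Th1 KO 1, Th1 KO 2, Th17 KO 1 or Th17 KO 3 (edgeR adjusted p = 0.0623 to 0.0763). Hspd1, the HSP60 ring, fell by 0.21 ± 0.06 in WT (edgeR adjusted p = 0.00453) and stood at -0.02 ± 0.06 in KO (0.797). Hspe1, its HSP10 lid, stood at 0.17 ± 0.07 in WT (edgeR adjusted p = 0.0609) and rose by 0.21 ± 0.07 in KO (0.0132). The WT value of Hspe1 passed in 4 of 19 alternatives, among them the fits without the 3 shallow libraries (0.0373, with 1 Th17 WT library) and without Th17 KO 2 (0.0416). The KO call of Hspe1 was lost without a filter on low counts (edgeR adjusted p = 0.0515), without Th1 KO 2 (0.0641) and without Th17 KO 1 (0.143). Trap1, the mitochondrial HSP90, stood at -0.02 and -0.06. Hspd1 and Hspe1 are neighbours on opposite strands of chromosome 1, and the printed element is the one found in the windows of both. Per length, Hspe1 read 1.05 to 1.1 times Hspd1 in Th1 WT and 1.38 to 1.42 times in Th17 WT. In KO the ratio was 1.08 to 1.26 in Th1 and 1.13 to 1.48 in Th17, and these overlapped. The 2 genes share 112 bases of exon on opposite strands, the kit does not mark strand, and other annotated genes share 33.7 and 29.1% of their 75-base stretches.

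The 5 genes with a 3-unit heat shock element did not share a direction. In WT, Hsph1, Chordc1 and Hspd1 were lower in Th17, and Dnajb6 and Hspe1 did not pass. In KO, Hsph1, Chordc1 and Dnajb6 were lower, Hspe1 was higher and Hspd1 did not pass. Hspa1a and Hspa1b hold the 2-unit element, as do Dnajb4 and Bag3, which rose, and Fkbp4, which fell.

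Other genes of the same pathways, from lists that hold none of the chaperone set, were read beside these results. Of 18 further HSP90 co-chaperones, 9 were lower and 2 higher in Th17 in WT, and 9 lower and 3 higher in KO, with median log2 fold changes of -0.32 and -0.25. Examples in WT were the cyclophilin Ppid (-0.54), the ubiquitin ligase Stub1 (-0.56), Fkbp5 (-0.34) and Nudc (-0.37), and in KO Fkbp5 (-0.7), Stub1 (-0.73), Pih1d1 (-0.75) and Ruvbl1 (-0.5). Of 18 tested HSP70 partners, 4 were lower and 3 higher in WT and 5 each way in KO. Over all genes, 23.5 and 23.6% were higher and lower in WT and 26.9 and 26.7% in KO. The counts of the further HSP90 co-chaperones, of the HSP70 partners and of the next 3 lists are to be read against these shares. St13, the HSP70-interacting protein Hip, was higher in both (0.47 and 0.58) and the ribosome-bound J-domain protein Dnajc2 lower in both (-0.52 and -0.51). Of 14 prefoldin and tubulin folding genes, 4 were lower and 2 higher in WT, and 5 lower and 4 higher in KO, with the tubulin cofactor Tbca lower in both (-0.36 and -0.47).

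Of 13 genes of mitochondrial protein quality control, 1 was lower and 3 higher in WT, and 3 lower and 4 higher in KO. The protease genes Afg3l2 (0.51 and 0.42) and Htra2 (0.41 and 0.74) were higher in both, and Grpel1, the nucleotide exchange factor of Hspa9, was lower in both (-0.43 and -0.34). Of 12 other stress-inducible genes, 7 were tested, with 2 lower and 1 higher in WT and 4 lower and 1 higher in KO. Zfand2a, a further heat shock factor target, was lower in both (-0.34 and -0.43), as was Hspb6 (-1.06 and -0.76).

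Other programmes moved between the same groups. All 12 proliferation genes were lower in Th17 in both genotypes, where 23.6% of all genes were lower in WT and 26.7% in KO. Their median log2 fold changes were -0.64 and -0.72. Their summed level was 6190 to 6550 CPM in Th1 WT, 5670 to 5810 CPM in Th1 KO, 3940 to 4350 CPM in Th17 WT and 3400 to 3640 CPM in Th17 KO. Of 12 immediate early genes, which sorting and handling can raise, 6 were higher and 4 lower in WT, where 23.5 and 23.6% of all genes were. In KO, 5 of these immediate early genes were higher and 2 lower, where 26.9 and 26.7% of all genes were. The receptor-induced Nr4a1 rose by 3.07 and 3.56 and Junb by 0.84 and 0.99, and the summed list read 377 to 539 CPM in Th1 and 628 to 885 CPM in Th17. The part of cell cycling or handling in the chaperone differences was not tested. In bulk RNA, fewer cells of a type and less RNA per cell cannot be told apart.

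KO cells were compared with WT cells within each polarization and averaged over both. The differences were small. Mitochondrial chaperones and some CCT subunits were higher in KO, by 9.95 to 22.1% where they passed the test, and Dnajb1 and Dnajb6 were lower in the average, by fitted changes of -12.1% and -11.8%. In Th1, 0 of the 31 tested genes passed the threshold in edgeR, against 4.61% of all genes (1.69% higher and 2.92% lower). At an unadjusted p under 0.05 there were 8. The share of all genes at that level was not counted, so the 8 are not read as particular to the chaperone genes. DESeq2 called 0 chaperone genes, against 317 of all genes. With sample weights, limma-voom called 2, against 1071 of all genes. In Th17, 2 passed (6.45%, against 5.83% of all genes), both higher, where 1.81 and 4.02% of all genes were higher and lower. In the average, 7 passed (22.6%, against 9.83% of all genes), 5 higher and 2 lower, where 3.19 and 6.64% of all genes were. The average uses the same libraries as the 2 comparisons within polarizations and is no separate evidence. The median log2 fold change of the 31 genes was 0.07 in Th1, 0.1 in Th17 and 0.09 in the average, and that of all genes was 0.00 in each. CPM ranges did not overlap for 11 higher and 3 lower genes in Th1, where 11.1 and 13.4% of all genes behaved so, and for 6 higher and 1 lower in Th17, against 8.94 and 9.59%.

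**Figure D4:**
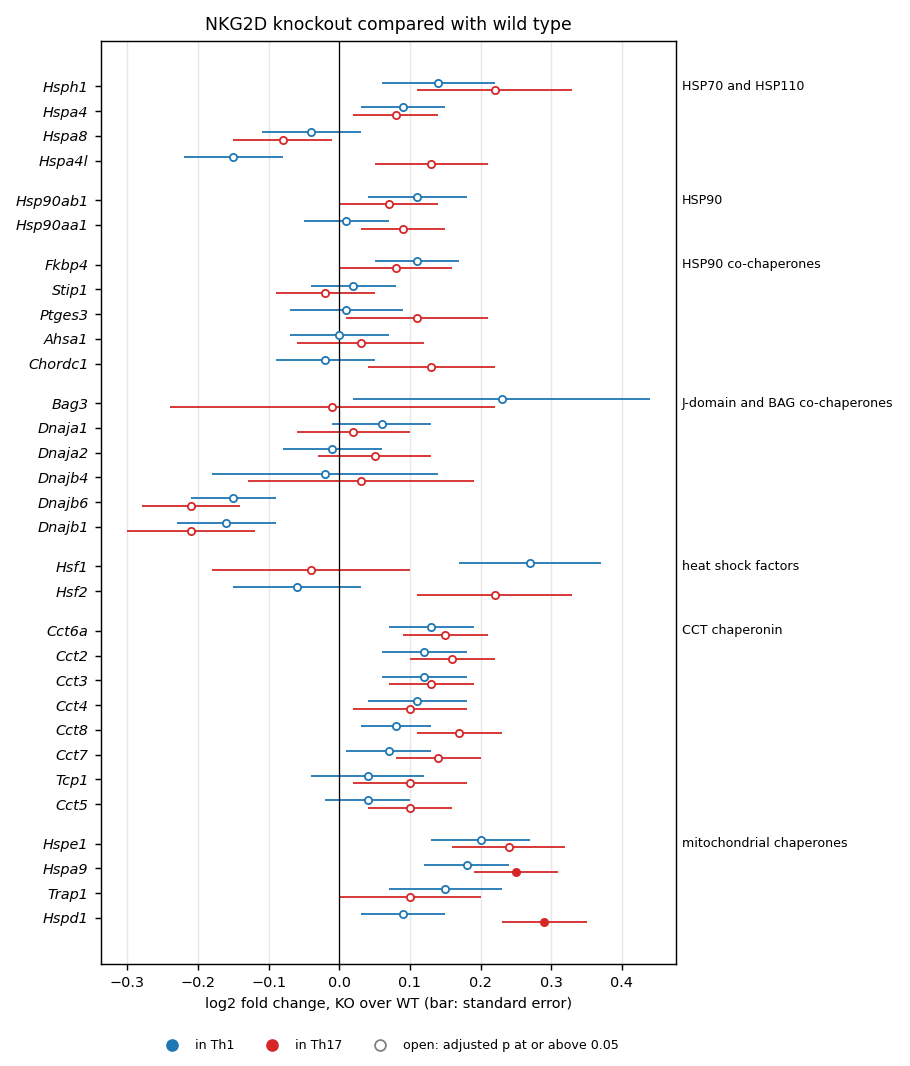
Fitted log2 fold change of KO over WT for the 31 tested chaperone genes, by role, in Th1 (blue) and Th17 (red), with the standard error as a bar and open points where the adjusted p was 0.05 or more. Hspd1 and Hspa9 in Th17, at 0.29 and 0.25, are the filled points, and the 8 CCT subunits lie right of 0 in both polarizations.

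All 4 mitochondrial chaperones had values above 0 in both polarizations, with medians of 0.16 in Th1 and 0.24 in Th17, where the median of all genes was 0.00. Hspa9 read 285, 302 and 294 CPM in Th1 WT, 340, 333 and 324 CPM in Th1 KO, 246, 244 and 270 CPM in Th17 WT and 299, 299 and 297 CPM in Th17 KO. The KO libraries stood above the WT libraries in each polarization. The log2 fold change was 0.18 ± 0.06 in Th1 (edgeR adjusted p = 0.066), 0.25 ± 0.06 in Th17 (0.0145) and 0.21 ± 0.04 in the average (0.000942). The Th17 call of Hspa9 was lost without Th17 WT 1 (edgeR adjusted p = 0.0632), without Th17 WT 2 (0.0767) and with only the Th17 libraries in the fit (0.115), and the average call held in all 19 alternatives. In Th1, Hspa9 passed in 6 of 20 alternatives, among them the fits without Th17 WT 1 (0.0491) and without Th17 WT 3 (0.048).

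Hspd1 read 213, 228 and 220 CPM in Th1 WT, 227, 243 and 236 CPM in Th1 KO, 191, 186 and 193 CPM in Th17 WT and 224, 236 and 238 CPM in Th17 KO. The genotypes overlapped in Th1 and lay apart in Th17. The log2 fold change was 0.09 ± 0.06 in Th1 (edgeR adjusted p = 0.435), 0.29 ± 0.06 in Th17 (0.00494) and 0.19 ± 0.04 in the average (0.00297). The Th17 call of Hspd1 was lost without the 3 shallow libraries (log2 0.26, edgeR adjusted p = 0.0727, with 1 WT library against 2 KO libraries) and with only the Th17 libraries in the fit (0.0518). Whether the 2 changes differ was tested directly, and the difference of 0.19 ± 0.08 did not pass (edgeR adjusted p = 0.425).

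Hspe1 read 73.2, 76.8 and 77.5 CPM in Th1 WT, 91.4, 84.1 and 86.2 CPM in Th1 KO, 87.1, 81.9 and 86.2 CPM in Th17 WT and 106, 85.1 and 100 CPM in Th17 KO. In Th17 the shallow library Th17 KO 2 lay among the WT libraries. The log2 fold change was 0.2 ± 0.07 in Th1 (edgeR adjusted p = 0.0806), 0.24 ± 0.08 in Th17 (0.0718) and 0.22 ± 0.05 in the average (0.00465), and the average call held in all 19 alternatives. Without Th17 KO 2 both the Th1 value (adjusted p = 0.0465) and the Th17 value (0.0227) of Hspe1 passed. Trap1 stood at 0.15 ± 0.08 in Th1 and 0.1 ± 0.1 in Th17 and did not pass. None of the 13 further genes of mitochondrial protein quality control passed in either polarization or in the average in edgeR. The smallest p in each were those of Clpp in Th1 (log2 0.29, adjusted p = 0.142), Yme1l1 in Th17 (0.2, 0.0883) and Spg7 in the average (-0.15, 0.0849).

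All 8 CCT subunits had values above 0 in Th1 and in Th17, with medians of 0.1 and 0.13, where the median of all genes was 0.00. The share of all genes above 0 was not counted. In the average 2 passed, both higher (25% of the subunits, where 9.83% of all genes passed and 3.19% were higher). Cct2 read 341, 346 and 323 CPM in Th1 WT, 382, 358 and 357 CPM in Th1 KO, 328, 299 and 293 CPM in Th17 WT and 352, 328 and 352 CPM in Th17 KO. Its genotypes lay apart in Th1 and met in Th17, where the lowest KO library equalled the highest WT library to the digits shown. The average change of Cct2 was 0.14 ± 0.04 (edgeR adjusted p = 0.0371). Cct6a read 206, 226 and 218 CPM in Th1 WT, 243, 233 and 235 CPM in Th1 KO, 180, 189 and 187 CPM in Th17 WT and 208, 196 and 205 CPM in Th17 KO, with no overlap in either polarization. The average change of Cct6a was 0.14 ± 0.04 (edgeR adjusted p = 0.0368). Each of the 2 calls was lost in 11 of 19 alternatives. That of Cct2 was lost with DESeq2 (adjusted p = 0.0594), without the 3 shallow libraries (0.151) and without any 1 library other than Th1 KO 3, Th17 WT 1 or Th17 KO 2 (0.0524 to 0.114). That of Cct6a was lost with DESeq2 (adjusted p = 0.0639), without a filter on low counts (0.0694) and without any 1 library other than Th1 WT 2, Th17 WT 3 or Th17 KO 2 (0.0507 to 0.108). Cct8 missed the threshold in the average (0.13 ± 0.04, edgeR adjusted p = 0.0504) and passed without Th17 WT 1 (0.0323), and Cct3 (0.12, 0.0694) passed without Th17 KO 2 (0.0276). Cct6a overlaps Psph on the other strand, which shares 15.9% of its 75-base stretches.

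Lower in KO in the average were 2 of the 6 J-domain and BAG genes, where 6.64% of all genes were. Dnajb1, with the library values given above, was below WT in all Th1 KO libraries and overlapped in Th17. The log2 fold change was -0.16 ± 0.07 in Th1 (edgeR adjusted p = 0.194), -0.21 ± 0.09 in Th17 (0.17) and -0.19 ± 0.05 in the average (0.0255). The average call of Dnajb1 was lost with DESeq2 (adjusted p = 0.0984) and in the edgeR fits without Th1 WT 2 (0.0691), Th1 KO 3 (0.0639), Th17 WT 1 (0.186) or Th17 KO 1 (0.144). Dnajb6 read 99.2, 106 and 106 CPM in Th1 WT, 88.6, 94.9 and 96.7 CPM in Th1 KO, 95.7, 91.4 and 102 CPM in Th17 WT and 80.8, 89.3 and 82.1 CPM in Th17 KO. KO libraries lay below WT libraries in both polarizations. The log2 fold change was -0.15 ± 0.06 in Th1 (edgeR adjusted p = 0.184), -0.21 ± 0.07 in Th17 (0.105) and -0.18 ± 0.05 in the average (0.0145). The average call of Dnajb6 was lost without Th1 KO 1 (edgeR adjusted p = 0.0524) and without Th17 KO 1 (0.055). Other annotated genes share 39.2% of its 75-base stretches.

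**Figure D5:**
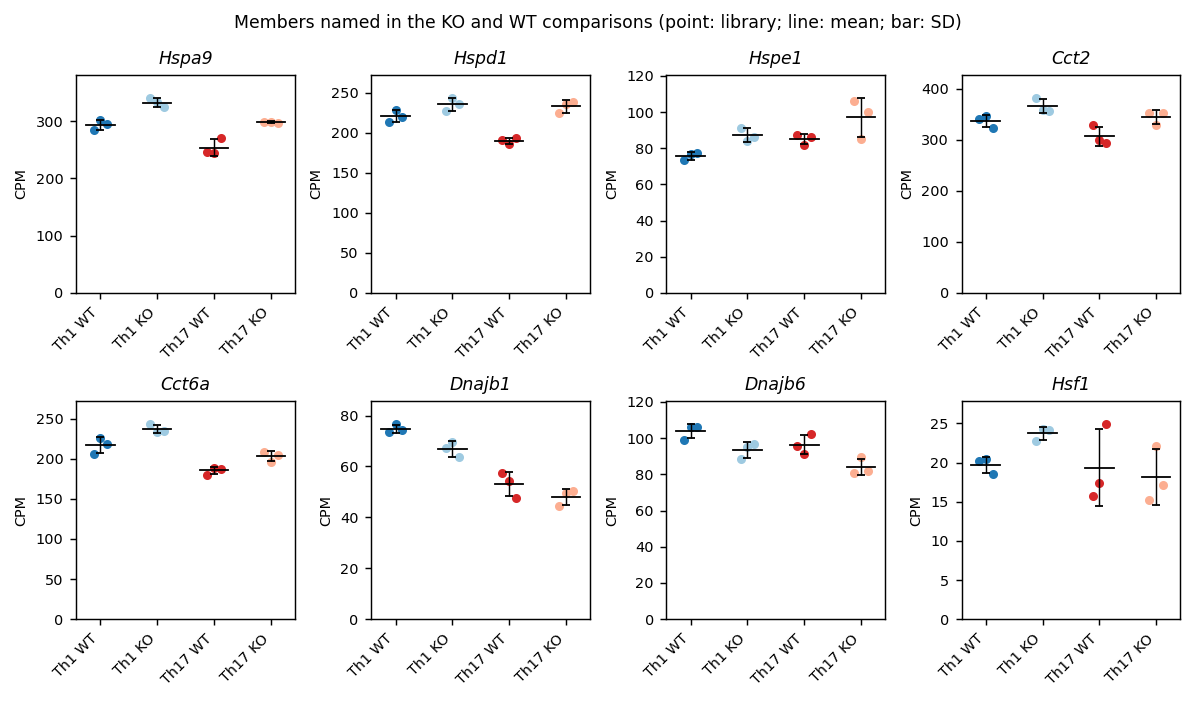
CPM of 8 chaperone genes in every library of the 4 groups, with the mean as a line and the SD as a bar, n = 3 per group, on axes that start at 0. Hspa9 is higher, and Dnajb6 lower, in each KO library than in each WT library of the same polarization, and Hsf1 spreads from 15.2 to 24.9 CPM in Th17.

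No gene of the remaining roles passed between the genotypes in the fit over all 12 libraries. Hsf1 stood at 0.27 ± 0.1 in Th1, where the KO libraries lay above the WT libraries (edgeR adjusted p = 0.141, and 0.0458 with only the Th1 libraries in the fit), and at -0.04 ± 0.14 in Th17 (0.985). Hsph1 stood at 0.14 ± 0.08 and 0.22 ± 0.11, with an average of 0.18 ± 0.07 (edgeR adjusted p = 0.0988). Hsp90aa1 (0.01 and 0.09), Hsp90ab1 (0.11 and 0.07), Hspa8 (-0.04 and -0.08) and the 5 HSP90 co-chaperones (-0.02 to 0.11 in Th1, -0.02 to 0.13 in Th17) did not pass in either polarization. None of the 18 further HSP90 co-chaperones passed in Th1, in Th17 or in the average in edgeR, where the smallest p were those of Fkbp5 (adjusted p = 0.0973), Tomm34 (0.0636) and Pih1d1 (0.0703). Of the 18 tested HSP70 partners, 1 passed in Th1, where 4.61% of all genes did. This was Hspbp1, higher in Th1 KO (log2 0.3, edgeR adjusted p = 0.0183). In Th17 Hspbp1 stood at -0.27 and did not pass (edgeR adjusted p = 0.132). Its genotype change differed between the polarizations (-0.57 for Th17 minus Th1, edgeR adjusted p = 0.0307), where 0.591% of all genes passed.

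For the chaperone genes the genotype change was not shown to differ between the polarizations. In edgeR 0 of 31 passed, against 0.591% of all genes (0.115% higher and 0.476% lower). An unadjusted edgeR p under 0.05 was seen for 2, Hspa4l (0.018) and Hspd1 (0.028). The share of all genes at that level was not counted, so these 2 are not read as a difference. DESeq2 and limma-voom also called 0. The largest SE of this difference was 0.31, for Bag3, and the others ran from 0.08 to 0.23. Proliferation genes moved with the genotype too, with 3 of 12 lower in Th1 KO, 4 in Th17 KO and 8 in the average. Of all genes, 2.92% were lower in Th1 KO, 4.02% in Th17 KO and 6.64% in the average. The median log2 fold change of the proliferation genes in the average was -0.19, led by Cenpf (-0.44), Top2a (-0.22), Cdk1 (-0.25) and Ccna2 (-0.22). Of the immediate early genes, Junb was lower in the average (-0.32). Their part in the chaperone differences was not tested.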

How the data were processed

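RNA of 12 samples was prepared with a poly-A based Smart-Seq v4 and Nextera XT protocol that does not mark strand, per the labels' protocols. The deposited values are raw read counts per Ensembl gene ID, not normalized. TopHat2, Bowtie2, featureCounts and the build GRCm38 (mm10) are named in the submitters' processing notes; their settings, the annotation release and the treatment of reads with several matches are not given in the sources used here. Of 39179 IDs, 96.0% were named with GENCODE M21. Samples were grouped by title, and replicate numbers follow the deposit order.

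Counts were filtered with filterByExpr, scaled by TMM and fitted over all 12 samples with edgeR 4.0.16 (quasi-likelihood, robust) in R 4.3.3. P-values were adjusted by the Benjamini-Hochberg method over 12189 genes, with a threshold of 0.05. The fit was tested on simulated data, with changes placed only in Th1 KO and larger than the chaperone genotype changes called here. That test does not cover changes as small as these, or changes in the Th17 groups. Standard errors are the absolute log2 fold change over the square root of F. With 3 samples against 3, an exact permutation test of a single gene cannot go below p = 0.1, so none was used. DESeq2 1.42.0 and limma-voom (limma 3.58.1) were alternatives, with RLE scaling, no filter, only the groups compared, the 3 shallow libraries or their dominant gene ID left out, each library left out, and a replicate block. Levels per length used the principal transcript, or the longest transcript for Cct6a, for which none was marked as principal. Shared sequence was counted as 75-base stretches found in transcripts of other genes. Motifs were searched in RefSeq promoter windows.

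The genes and lists were chosen with earlier results of these data known. Library values are given for Hspa1a, Hspa1b, Hspa8, Hsph1, Hsp90aa1, Hsp90ab1, Dnajb1, Hspd1, Hspe1 and Hsf1, for other members that passed between genotypes, and for the 4 highest and 4 lowest that passed in both Th17 and Th1 comparisons. From each other list, the text names at most 4 genes that passed, taken by p, or the single gene with the smallest p where none did; one printed for both genotypes met this in at least 1. One item of a marker list is not reported here.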

Additional observations from a re-analysis of the deposited data

How the results depend on the processing

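No called chaperone gene changed direction in any alternative. Over 44 calls and 838 alternative values, 71 lost the call and 29 calls held throughout (14 of 17 for Th17 against Th1 in WT, 12 of 18 in KO, 0 of 2 for KO against WT in Th17 and 3 of 7 in the average). Counts of called chaperone genes for Th17 against Th1 ran from 17 to 20 in WT and from 13 to 23 in KO. For KO against WT in Th1 the count of 0 became 2 with limma-voom, 2 without the 3 shallow libraries, 3 with only the groups compared and 0 to 1 with 1 library left out. In Th17 the count of 2 became 1 without the shallow libraries, where 1 Th17 WT library is set against 2 Th17 KO libraries, 0 with only the groups compared and 1 to 3 with 1 library left out. In the average the count of 7 became 4 with DESeq2 and 3 to 8 with 1 library left out, with 4 without Th1 KO 1 and 3 without Th17 KO 1. The average count over all genes, 1198, became 935 to 1215 with 1 library left out. Over all genes, the Th1 count of 562 became 317 with DESeq2, 1071 with limma-voom, 922 with only the groups compared and 260 to 679 with 1 library left out. The Th17 count of 711 became 429 with limma-voom, 319 in the same comparison of 1 with 2 libraries, 356 with only the groups compared and 411 to 713 with 1 library left out. The count of 72 for the difference of the genotype changes became 207 without a filter and 38 to 108 with 1 library left out. The level per length of Hspa8 went from 872 to 485 CPM per kb and that of Hsp90ab1 from 722 to 606 with the length of all exons, an alternative chosen after seeing the data. Apart from that change of length and from fits with fewer samples or genes, the cause was not tested.

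The labels give no replicate numbers. A replicate block joined WT and KO libraries by library code. It gave 3 chaperone genes in Th1, 3 in Th17, 10 in the average and 0 for the difference. Hsf1 then passed in Th1 (edgeR adjusted p = 0.0316) and Hsph1 in the average (0.0371). Of all genes, 1315 passed in Th1, 1117 in Th17 and 329 for the difference. The count of all genes in the average under this block is not given here. The 10 are therefore not read as particular to the chaperone genes. Correlations of the joined libraries' deviations were -0.06 to 0.23. The highest correlation of each WT library with another KO library of its polarization was -0.05 to 0.11. The joined library gave the higher value in every pair except that of Th17 WT 3 (-0.06, against 0.11). The labels state no pairing, so the main fit used none, and whether the libraries are paired was not settled. No paired analysis was possible for Th17 against Th1 because each joined pair lies within 1 polarization. The shallow libraries limit the low genes, with 5 to 23 counts of Bag3 in each.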
